A study of Mus musculus with 12 samples.

Results

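The interferon-stimulated and antigen presentation genes described here are 41 genes whose symbols were matched to the deposited table, out of 29862 genes in it. Each symbol occurred once. Poly(A) RNA was sequenced from mandibular fibrochondrocytes, cells of the cartilage that covers the condyle of the lower jaw. All cells descended from the condylar cartilage of 10- to 14-day-old C57BL/6J pups and carried hTERT, the catalytic subunit of telomerase, delivered by a retrovirus to immortalize them. The 4 groups of 3 libraries each were NG2|EDmut cells under serum starvation, NG2|EDmut cells in serum, control cells under serum starvation and control cells in serum. NG2|EDmut is 1 clone, made with CRISPR/Cas9, that lacks the type VI collagen binding region of the NG2/CSPG4 ectodomain, and control cells are the immortalized line with the unedited gene. Serum medium was AMEM with heat inactivated FBS, and starvation medium was Optimem without serum. The basal medium thus changed together with the serum, and their effects cannot be told apart. How long these cells were starved is not stated in the labels or methods used here. Because 1 clone was set against 1 line, the p-values measure the spread between cultures, and an effect of the edit and a difference of the clone cannot be told apart.

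Cells that sense viral RNA through the helicases RIG-I, encoded by Ddx58, and MDA5, encoded by Ifih1, secrete interferons. Type I interferon binds a receptor made of IFNAR1 and IFNAR2, and the kinases JAK1 and TYK2 then activate STAT2, which joins IRF9 on DNA elements with repeated GAAA letters and switches on the antiviral genes. MHC class I molecules, a heavy chain such as H2-K1 or H2-D1 with the light chain B2M, carry peptides that the immunoproteasome subunits PSMB8 and PSMB9 help to cut and the transporter TAP1 brings into the endoplasmic reticulum. Fibroblast-like cells keep a low tonic level of these genes without infection.

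The libraries held 60277881 to 77172479 estimated counts, and replicates of a group correlated with r of 0.953 to 0.985 over log2 CPM (counts scaled to library size with TMM factors). Ribosomal RNA took 0.490% to 4.82% of the counts, with the highest share in control starvation replicate 2. Control serum replicate 1 stood apart from its group: over 2483 genes its median position was 0.724 on a scale on which the other control serum libraries lie at 0 and the control starvation libraries at 1. Results that turn on it are given without it. Cspg4, the edited gene, averaged 229 ± 24.7 CPM in NG2|EDmut cells and 84.1 ± 26.2 CPM in control cells under starvation (SD, n = 3 each), and a gene-level count does not show the truncated region. Col1a1, Col1a2 and Fn1 were abundant. Of the cartilage markers, Sox9 and Col2a1 had group means of 20.1 to 47.8 CPM and 11.9 to 39.2 CPM, whereas Acan and Prg4 were near 1 CPM or below.

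Fewer members were expressed than the list holds. Per transcript length, B2m was the most abundant, with a mean of 342 FPKM (fragment counts scaled to transcript length and library size) over the 12 libraries. H2-D1 followed at 89.8 FPKM, H2-K1 at 37.1 FPKM, Ifi27 at 26.3 FPKM and Lgals3bp at 21.2 FPKM. Stat2 stood at 5.24 FPKM and Isg15 at 1.58 FPKM, whereas Irf7 was at 0.316 FPKM. A mean of at least 1 CPM was reached by 27 members. Oas2, Oas3, Mx1, Rsad2 and Zbp1, antiviral effectors that are strongly induced in infected cells, had 0 to 20 estimated counts in every library and were not tested, which left 36 members among 18703 tested genes. Interferon transcripts themselves were near 0. Ifnb1, the gene of interferon beta, had means of 0.00896 CPM in NG2|EDmut starved cells, 0.00956 CPM in NG2|EDmut serum cells and 0 CPM in both control groups.

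Under serum starvation the members stood lower in NG2|EDmut cells than in control cells. Of 36 tested members, 23 were called lower and 1 higher at an adjusted p under 0.05 (edgeR quasi-likelihood test, Benjamini-Hochberg over all tested genes), against 20.1% of all tested genes called lower and 17.9% called higher. The median log2 fold change of the members was -0.89, against -0.02 over all tested genes, and 32 of 36 lay below 0. In serum 18 members were called lower and 1 higher, against 16.2% and 15.4% of all tested genes, with a median log2 fold change of -0.67, against -0.03 over all tested genes. The members were chosen with earlier results of these data known, so these contrasts with all genes describe the list and are not independent support. Lower calls in both media numbered 14, lower calls in serum only 4, and lower calls under starvation only 9, and 8 members were called in neither. The shares of all tested genes with these combinations of calls were not counted, so these numbers only describe the members. A call in 1 medium only does not show that the media differ, which was tested as an interaction and is given with the starvation results. The members' summed level was 882 to 960 CPM in NG2|EDmut starved libraries, against 1284 to 1553 CPM in control starved libraries, and 677 to 822 CPM in NG2|EDmut serum libraries, against 840 to 951 CPM in control serum libraries. These sums are mostly B2m, H2-D1 and H2-K1.

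**Figure D1:**
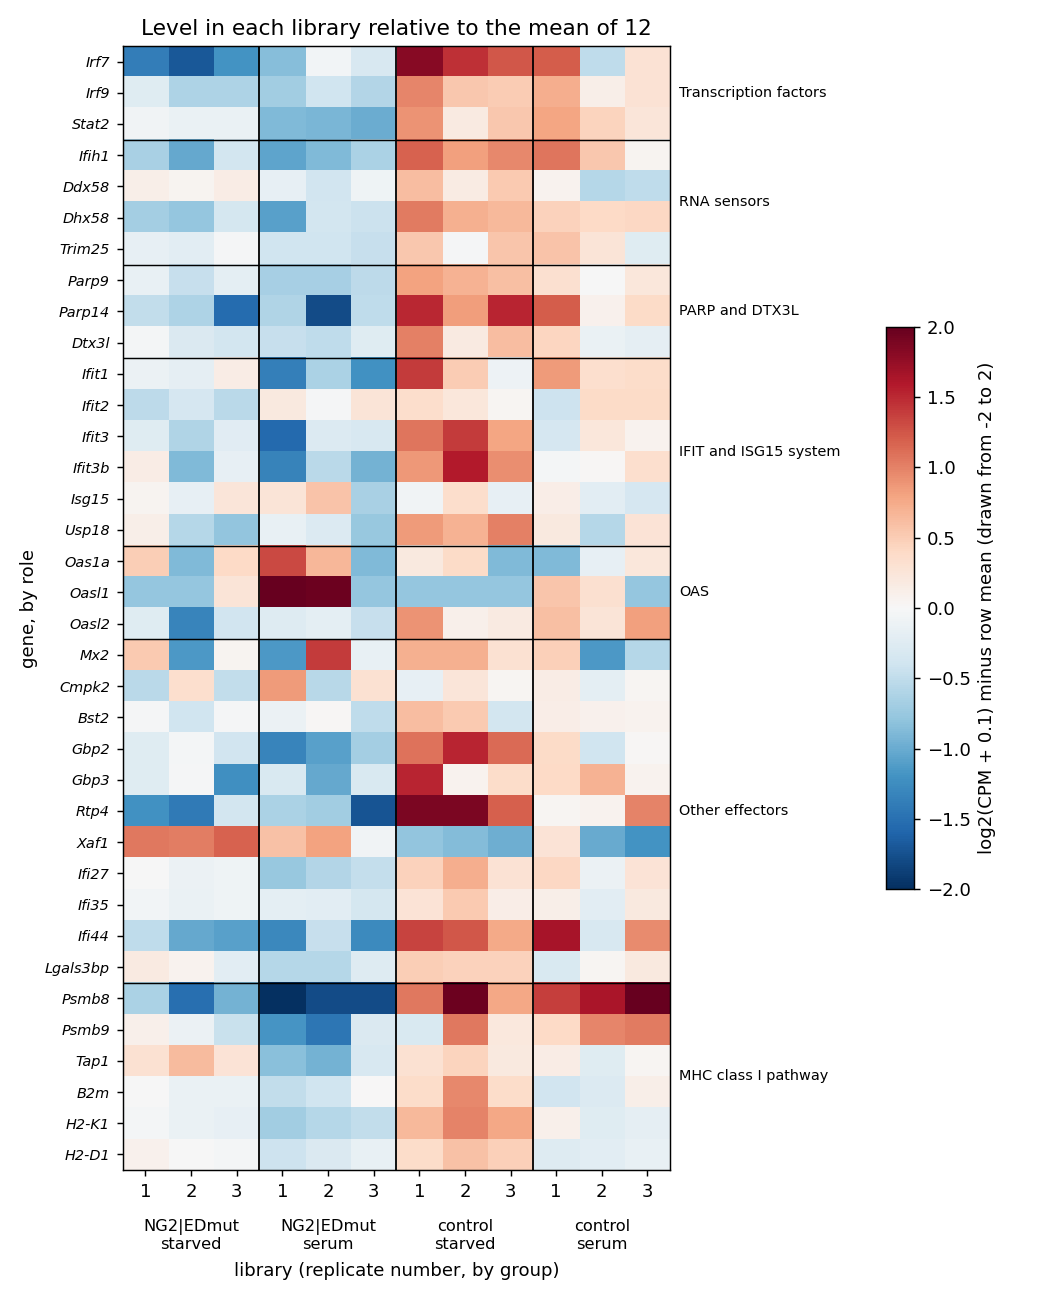
Level of the 36 tested members (rows, grouped by role) in each of the 12 libraries (columns), as log2(CPM + 0.1) minus the row's mean, with colours drawn from -2 to 2. Rows are mostly blue in the NG2|EDmut libraries and red in the control starved libraries, and Xaf1 has the opposite pattern.

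Summed over 12 macrophage and leukocyte markers, the level also differed between the lines, at 17.5 to 26.9 CPM in NG2|EDmut starved, 12.2 to 19.4 CPM in NG2|EDmut serum, 87.5 to 125 CPM in control starved and 48.7 to 88.2 CPM in control serum libraries. Most of it was Lyz2, a lysozyme, with means of 12.5 and 8.52 CPM in NG2|EDmut starved and serum cells, against 87.6 and 57.0 CPM in control starved and serum cells. Without Lyz2 the other 11 markers summed to 7.50 to 10.4 CPM, 6.49 to 9.46 CPM, 11.5 to 16.9 CPM and 10.6 to 11.5 CPM in the same order of groups. Of 11 tested markers, Lyz2, Fcer1g and Cd14 were called lower under starvation, and Lyz2 and Fcer1g in serum. These lower calls were 27.3% and 18.2% of the tested markers, against 20.1% and 16.2% of all tested genes. The defining markers Ptprc (CD45), Adgre1, Itgam and Tyrobp had group means of at most 0.357 CPM, whereas Csf1r, Cd68 and Cd14 had group means of 1.41 to 2.67 CPM, 1.27 to 2.71 CPM and 2.42 to 4.24 CPM.

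Other marker lists also held genes called between the lines. Of all tested genes, 20.1% were called lower and 17.9% higher under starvation, and 16.2% and 15.4% in serum. The 7 endothelial markers summed to 5.39 to 5.61 CPM in NG2|EDmut starved, 4.97 to 10.1 CPM in NG2|EDmut serum, 1.31 to 2.27 CPM in control starved and 0.747 to 0.964 CPM in control serum libraries. Most of it was Vwf, called higher in NG2|EDmut cells under starvation (log2 fold change 2.15) and in serum (3.71), and 6 of the 7 were under 1 CPM in every library. Tie1, at 0 CPM in every control library, was also called higher in serum. It passed the filter on low counts only through NG2|EDmut libraries, so this call is not a fair test. Of 6 tested endothelial markers, 1 (16.7%) was thus called higher under starvation and 2 (33.3%) in serum, Tie1 among them. Of 13 fibrochondrocyte and mesenchymal markers, 5 (38.5%) were called lower and 0 higher under starvation, and 5 (38.5%) lower and 2 (15.4%) higher in serum. Col3a1, a fibrillar collagen, was lower in NG2|EDmut cells by 1.08 under starvation and by 2.18 in serum on the log2 scale. Col2a1, the cartilage collagen, was lower in NG2|EDmut cells by 1.36 in serum. Of 5 plasmacytoid dendritic cell markers, 4 were tested and 1 (25%) was called, higher in both media. It was Tcf4, a transcription factor that many tissues express, and the defining marker Siglech had group means of at most 0.191 CPM. The summed level of 4 T, B and NK cell markers was at most 0.279 CPM in any library. The part of other cells in the members' levels was not tested, and in bulk RNA fewer cells of a type and less RNA per cell cannot be told apart.

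The 3 transcription factors of the list are IRF9 and STAT2, the partners in the interferon-activated complex, and IRF7, an interferon-inducible factor that amplifies interferon production. Stat2 measured 29.4, 28.0 and 28.0 CPM in NG2|EDmut starved cells, against 57.2, 34.9 and 44.7 CPM in control starved cells. In serum it measured 16.7, 16.3 and 15.4 CPM in NG2|EDmut cells, against 53.2, 42.0 and 36.4 CPM in control cells. The groups did not overlap in either medium, and the control libraries were far more spread than the NG2|EDmut ones. The log2 fold change was -0.68 ± 0.18 (SE, adjusted p = 0.0090) under starvation and -1.44 ± 0.18 (adjusted p = 9.43e-05) in serum. Without control starvation replicate 1, the highest library, the starvation call was lost (adjusted p = 0.0626).

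Irf9 had 7.55, 5.82 and 5.79 CPM in NG2|EDmut starved cells, against 17.6, 13.1 and 12.8 CPM in control starved cells. In serum it had 5.50, 6.74 and 5.89 CPM in NG2|EDmut cells, against 14.9, 9.66 and 11.0 CPM in control cells. Every NG2|EDmut library thus lay below every control library. The log2 fold changes were -1.18 ± 0.20 (adjusted p = 6.21e-04) and -0.97 ± 0.20 (adjusted p = 0.0033), and both calls held with any single library left out.

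Irf7 showed the largest difference between the lines under starvation among the called members. It had 0.306, 0.228 and 0.364 CPM in NG2|EDmut starved cells, which is 17 to 28 estimated counts a library, against 3.64, 2.81 and 2.41 CPM in control starved cells. The log2 fold change was -3.29 ± 0.46 (adjusted p = 1.52e-04), called with any single library left out. In serum the lines overlapped, with 0.488, 0.919 and 0.746 CPM in NG2|EDmut cells, against 2.35, 0.644 and 1.19 CPM in control cells (log2 fold change -0.96 ± 0.42, adjusted p = 0.107). Control serum replicate 1 was the highest of these.

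**Figure D2:**
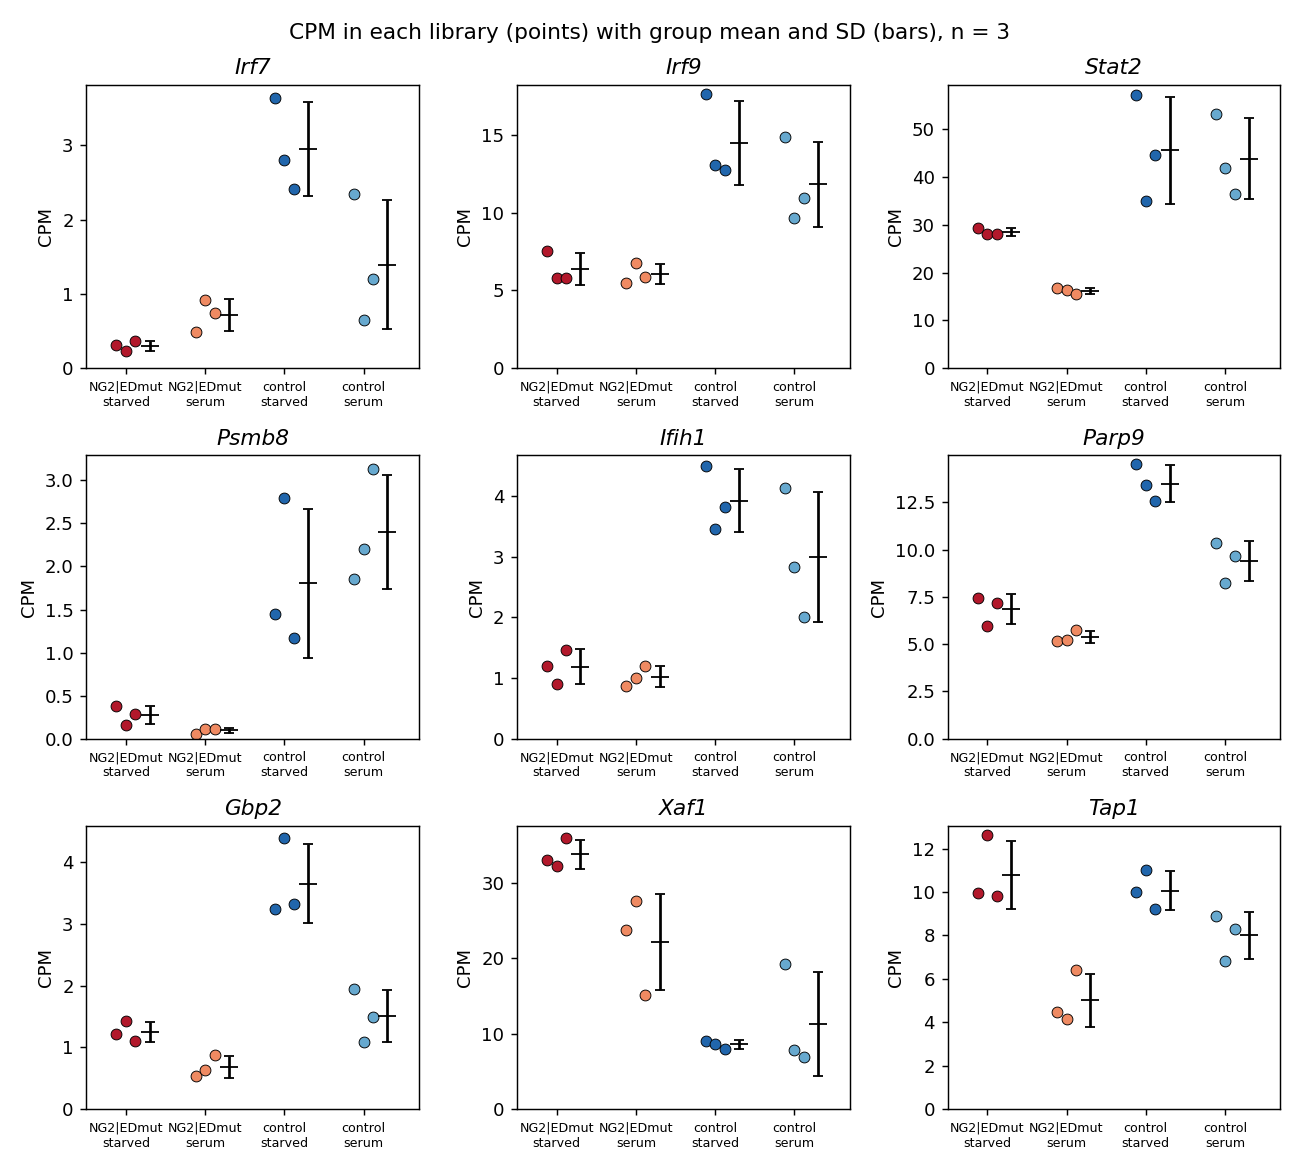
CPM of 9 members in each library (points, 3 per group) with the group mean and SD beside them (bars). The axes start at 0, the NG2|EDmut groups stand to the left of the control groups, and Xaf1 is the panel with higher NG2|EDmut values.

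Of the RNA sensors and their regulators, Ifih1 and Dhx58 were called lower in both media and Trim25 in serum. Ifih1, the sensor of long double-stranded RNA, had 1.20, 0.900 and 1.47 CPM in NG2|EDmut starved cells, against 4.49, 3.46 and 3.83 CPM in control starved cells. Its serum values were 0.876, 0.996 and 1.20 CPM in NG2|EDmut cells, against 4.14, 2.83 and 2.01 CPM in control cells. The groups were apart in both media, with log2 fold changes of -1.72 ± 0.29 (adjusted p = 5.70e-04) and -1.55 ± 0.29 (adjusted p = 0.0018). Dhx58, which encodes the RNA-binding relative LGP2, had log2 fold changes of -1.50 under starvation and -1.10 in serum. Ddx58, the RIG-I gene, was not called in either medium with all libraries. Its means were 20.6 CPM in NG2|EDmut and 26.1 CPM in control starved cells, and 16.6 CPM in NG2|EDmut and 15.4 CPM in control serum cells. Trim25, a ubiquitin ligase that acts on RIG-I, was called in serum (log2 fold change -0.66, adjusted p = 0.0266) but not without control serum replicate 1 (adjusted p = 0.0699), and the call was also lost without any of 4 other libraries. Under starvation, Ddx58 and Trim25 were both called lower without control serum replicate 1.

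Parp9, Parp14 and Dtx3l encode ADP-ribosyltransferases and the ubiquitin ligase that partners with PARP9. All 3 were called lower in NG2|EDmut cells under starvation, against 20.1% of all tested genes. Parp9 had 7.46, 5.98 and 7.18 CPM in NG2|EDmut starved cells, against 14.5, 13.4 and 12.5 CPM in control starved cells. The serum levels were 5.18, 5.20 and 5.73 CPM in NG2|EDmut cells, against 10.3, 8.24 and 9.64 CPM in control cells. These are among the tightest groups of the list, with log2 fold changes of -0.97 ± 0.14 (adjusted p = 2.37e-04) and -0.81 ± 0.14 (adjusted p = 0.0013). Parp14 was lower in NG2|EDmut than in control cells by 2.23 under starvation and by 1.59 in serum on the log2 scale. The serum call was lost without NG2|EDmut serum replicate 2. Dtx3l was lower in NG2|EDmut cells by 0.89 under starvation (adjusted p = 0.0106, lost without control starvation replicate 1). It was not called in serum (log2 fold change -0.48). Parp9 and Dtx3l overlap by 682 bases on opposite strands at their starts. Whether counting used strand is not stated in the sources, so reads of the overlap cannot be assigned.

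The IFIT and ISG15 system, proteins that bind viral RNA or are attached to other proteins as a ubiquitin-like tag, was split. Under starvation Ifit2, Ifit3, Ifit3b and Usp18, a protease that removes ISG15, were called lower, with log2 fold changes of -0.68, -1.51, -1.55 and -1.47. Ifit3 averaged 1.46 ± 0.22 CPM in NG2|EDmut starved cells and 4.16 ± 0.91 CPM in control starved cells (SD, n = 3 each). In serum Ifit1 (-1.96) and Ifit3b (-1.20) were called lower. Isg15 was not called in either medium, at 1.22 ± 0.19 CPM in NG2|EDmut starved cells and 1.23 ± 0.27 CPM in control starved cells, and at 1.31 ± 0.54 CPM in NG2|EDmut serum cells and 1.07 ± 0.20 CPM in control serum cells. Ifit2 was lost without any of 3 libraries, Usp18 without any of 4, and Ifit3b in serum without any of 5. Ifit3 and Ifit3b are near copies: 41.1% of the 75-base stretches of Ifit3 transcripts also occur in Ifit3b, so the counts of either are uncertain.

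Of the OAS family, which includes the 2-5A synthetases that make the activator of the RNase L ribonuclease, 3 of 5 listed genes were tested. Oasl2 averaged 0.361 ± 0.16 CPM in NG2|EDmut starved cells and 0.831 ± 0.30 CPM in control starved cells and was called lower (log2 fold change -1.20, adjusted p = 0.0383), a call lost without any of 6 libraries. Oas1a and Oasl1 were at 0 in 4 and 7 libraries and were not called. For Oas1a, 47.6% of the stretches are shared with Oas1g.

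Among the other effectors, 6 of 11 tested were called lower under starvation and 5 of 11 in serum, against 20.1% and 16.2% of all tested genes. Gbp2, a guanylate-binding GTPase, had 1.22, 1.42 and 1.10 CPM in NG2|EDmut starved cells, against 3.24, 4.40 and 3.33 CPM in control starved cells. In serum medium it measured 0.531, 0.638 and 0.875 CPM in NG2|EDmut cells, against 1.94, 1.09 and 1.49 CPM in control cells. The groups were apart in both media, with log2 fold changes of -1.55 ± 0.27 and -1.15 ± 0.28. Ifi27, which encodes a small mitochondrial membrane protein, had 23.5, 26.5 and 28.6 CPM in NG2|EDmut serum cells, against 53.0, 36.7 and 48.3 CPM in control serum cells. Its log2 fold changes were -0.81 in serum and -0.57 under starvation, and both calls held with any single library left out.

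Rtp4 encodes a chaperone of membrane receptors. On the log2 scale it was lower in NG2|EDmut than in control cells, by 2.94 under starvation and by 1.62 in serum. Its transcripts share 10.5% of their 75-base stretches with the overlapping gene model Gm45338. Ifi44 was lower in NG2|EDmut cells by 2.09 and by 2.03, and Lgals3bp, a secreted glycoprotein, by 0.46 and by 0.45. The Lgals3bp calls were the less stable, lost without any of 6 libraries under starvation and without any of 7 in serum. Ifi35 was called under starvation only (-0.41, adjusted p = 0.0446), and this call was lost in 8 of 12 fits with 1 library left out. Bst2, Cmpk2, Gbp3 and Mx2 were not called in either medium.

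Xaf1 was the exception. It encodes a pro-apoptotic partner of XIAP and had 33.0, 32.3 and 35.9 CPM in NG2|EDmut starved cells, against 9.08, 8.64 and 7.98 CPM in control starved cells. The log2 fold change was 1.98 ± 0.34 (adjusted p = 7.12e-04), held with any single library left out. In serum it had 23.7, 27.6 and 15.2 CPM in NG2|EDmut cells, against 19.3, 7.81 and 6.89 CPM in control cells. Control serum replicate 1 overlapped with the NG2|EDmut libraries there. The serum call (0.97 ± 0.33, adjusted p = 0.0442) was kept in only 2 of 12 fits with 1 library left out, and leaving out control serum replicate 1 gave 1.59 on the log2 scale (adjusted p = 9.23e-05).

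**Figure D3:**
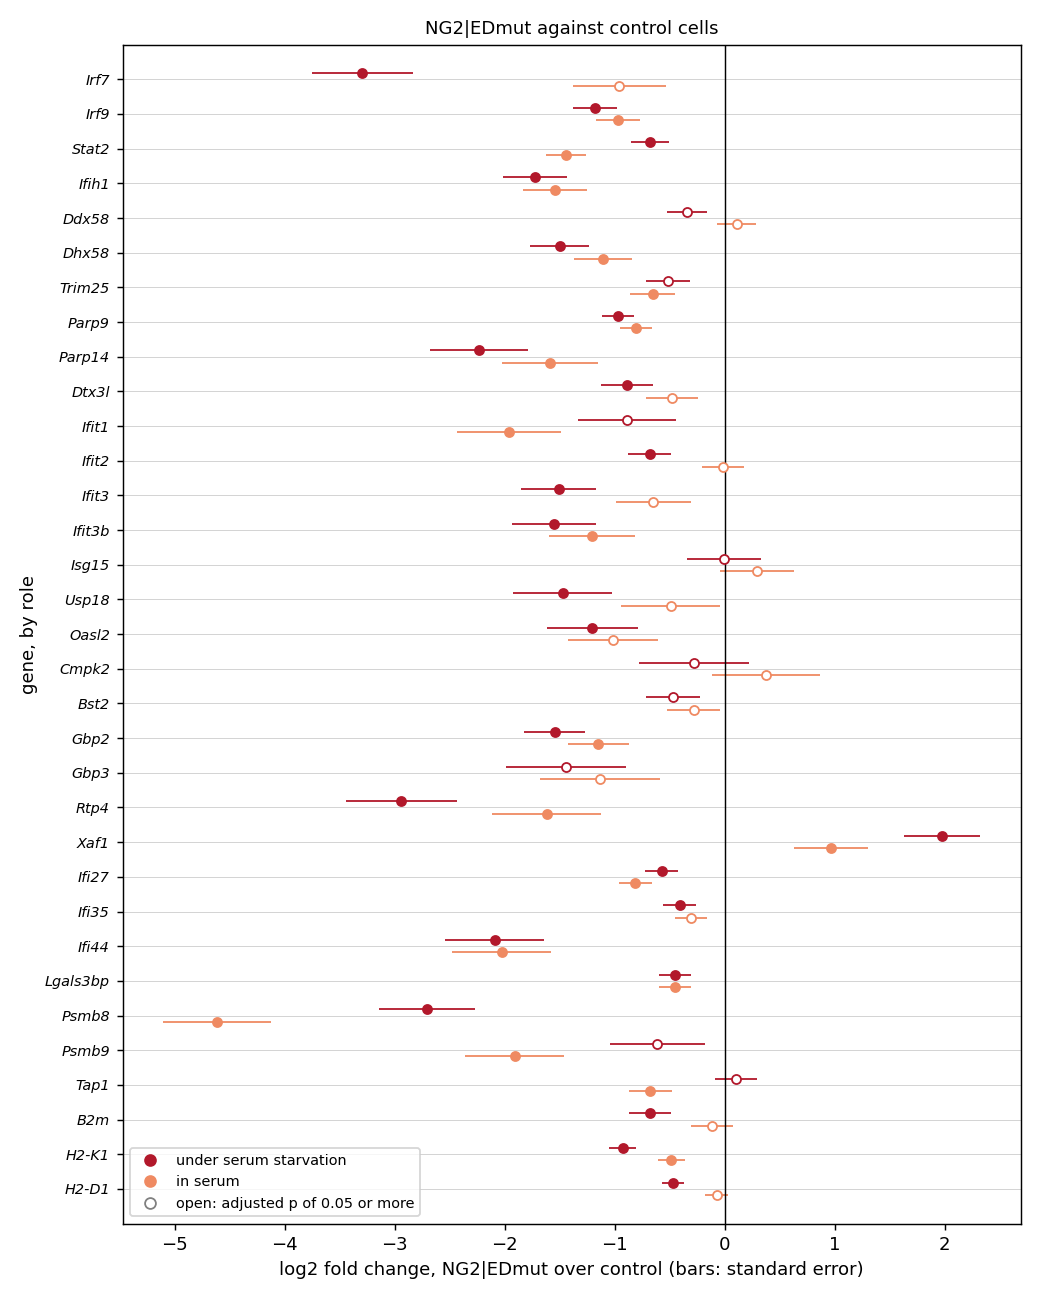
Log2 fold change of NG2|EDmut over control cells (horizontal axis, bars show the standard error) for 33 members under serum starvation and in serum, with open circles where the adjusted p was 0.05 or more. Oas1a, Oasl1 and Mx2, whose levels were near 0, are not drawn. Most points lie left of 0, with Xaf1 to the right in both media.

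In the MHC class I pathway, Psmb8 and H2-K1 were called lower in both media, Psmb9 and Tap1 in serum, and H2-D1 and B2m under starvation. None of the 6 passed the test of the difference between the media (interaction), against 4.39% of all tested genes. Psmb8, an immunoproteasome subunit, had 0.0574, 0.115 and 0.115 CPM in NG2|EDmut serum cells, against 1.85, 2.21 and 3.14 CPM in control serum cells. Under starvation it had 0.379, 0.161 and 0.286 CPM in NG2|EDmut cells, against 1.45, 2.79 and 1.17 CPM in control cells. The groups were apart, with log2 fold changes of -4.62 ± 0.49 (adjusted p = 3.23e-05) in serum and -2.70 ± 0.43 (adjusted p = 4.18e-04) under starvation, held with any single library left out. The NG2|EDmut serum values rest on 4 to 9 estimated counts a library, so the size of the serum fold is loosely set.

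Psmb9, the neighbouring subunit, averaged 0.480 ± 0.26 CPM in NG2|EDmut serum cells and 1.80 ± 0.43 CPM in control serum cells and was called lower there (-1.91, adjusted p = 0.0071). It was not called under starvation (-0.61, adjusted p = 0.295). Tap1 had 4.48, 4.16 and 6.42 CPM in NG2|EDmut serum cells, against 8.91, 6.81 and 8.31 CPM in control serum cells (-0.67 ± 0.19, adjusted p = 0.0194, lost without NG2|EDmut serum replicate 1 or 2). Under starvation the lines overlapped, at 9.95, 12.6 and 9.81 CPM in NG2|EDmut cells, against 9.99, 11.0 and 9.20 CPM in control cells.

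H2-K1, a classical heavy chain, had 107, 101 and 97.9 CPM in NG2|EDmut starved cells, against 174, 219 and 188 CPM in control starved cells. Its serum values were 68.0, 74.6 and 78.4 CPM in NG2|EDmut cells, against 119, 92.9 and 97.5 CPM in control cells. The log2 fold changes were -0.93 ± 0.12 (adjusted p = 1.06e-04) and -0.48 ± 0.12 (adjusted p = 0.0105), and the serum call was lost without NG2|EDmut serum replicate 1 (adjusted p = 0.0535). H2-D1 was called lower under starvation, at 260, 243 and 237 CPM in NG2|EDmut cells, against 316, 368 and 340 CPM in control cells (-0.47 ± 0.10, adjusted p = 0.0034). The serum levels were 183, 199 and 221 CPM in NG2|EDmut cells, against 205, 210 and 219 CPM in control cells, and the groups overlapped (-0.07 ± 0.10). The interaction was -0.40 (adjusted p = 0.157) and was not called.

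B2m, the light chain shared by all class I molecules, had 305, 279 and 278 CPM in NG2|EDmut starved cells, against 393, 594 and 394 CPM in control starved cells. The difference of -0.68 ± 0.19 was called (adjusted p = 0.0152) but lost without control starvation replicate 2, the highest library, or NG2|EDmut starvation replicate 2 or 3. In serum medium it measured 218, 232 and 307 CPM in NG2|EDmut cells, against 234, 253 and 333 CPM in control cells, which overlapped (-0.12 ± 0.19). Of H2-D1 stretches 5.40% and of H2-K1 stretches 3.10% occur in other genes, mostly of the same family, so a small part of their counts may be shared.

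**Figure D4:**
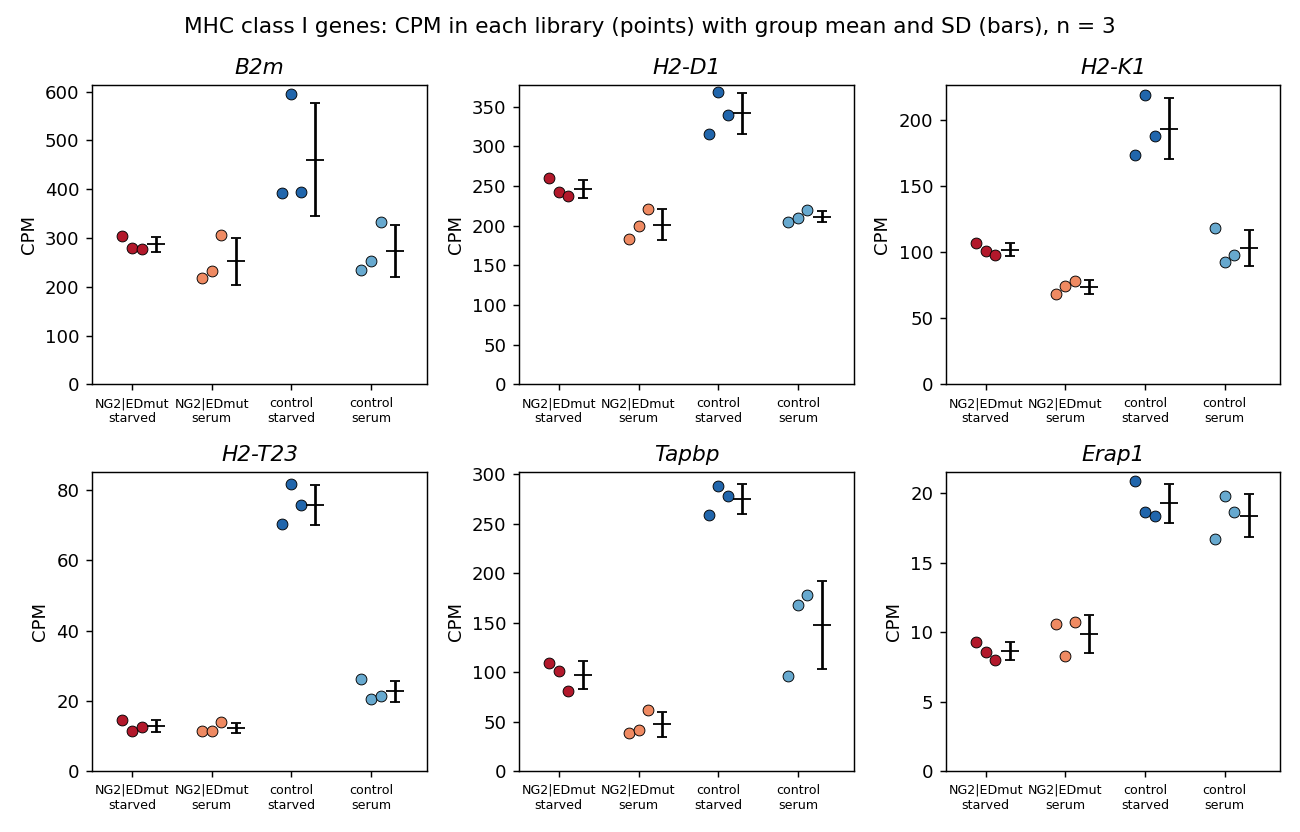
CPM of the members B2m, H2-D1 and H2-K1 (top) and of the class I genes H2-T23, Tapbp and Erap1 outside the list (bottom) in each library (points, 3 per group), with the group mean and SD (bars). Axes start at 0, and the control starved group holds the highest values of B2m, H2-D1, H2-K1, H2-T23 and Tapbp.

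Starvation itself was compared with serum in each line. In NG2|EDmut cells 2 members were called higher and 0 lower, against 0.957% and 1.1% of all tested genes, with a median log2 change of 0.18. Without control serum replicate 1, 5 of 37 members were called higher and 1 lower, against 3.11% and 4.43% of all tested genes. With all libraries the 2 called members were Tap1 (1.10 ± 0.19, adjusted p = 0.0120) and Stat2 (0.82 ± 0.18, adjusted p = 0.0369), for which the library values above do not overlap. The Tap1 call was lost without any of 3 NG2|EDmut libraries (serum replicate 1 or 2, or starvation replicate 2), and the Stat2 call in 7 of 12 fits with 1 library left out. Ifit1, Ifit2, Gbp2, Ifi27, Lgals3bp, Irf7, Parp9, Psmb8, H2-K1 and H2-D1 had an unadjusted p under 0.05 but were not called (adjusted p of 0.0798 to 0.308). Of these, Ifit2 and Irf7 had negative changes. The share of all tested genes at that unadjusted limit was not counted, so no difference is claimed for them.

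In control cells 8 members were called higher under starvation and 0 lower, against 9.45% and 10.8% of all tested genes, with a median log2 change of 0.40. Without control serum replicate 1 the count was again 8 higher, of 37 tested members (21.6%), against 17.3% of all tested genes called higher and 15.8% lower. The share of all genes called higher was 5.16% to 17.3% over the 12 fits with 1 library left out. The 8 called with all libraries included the class I chains H2-K1 (0.91 ± 0.12, adjusted p = 7.32e-04), H2-D1 (0.69 ± 0.10, adjusted p = 0.0012) and B2m (0.75 ± 0.19, adjusted p = 0.0180). Ddx58 had 29.3, 21.5 and 27.6 CPM in control starved cells, against 20.0, 12.8 and 13.4 CPM in control serum cells (0.76 ± 0.18, adjusted p = 0.0115). The groups did not overlap, and control serum replicate 1 was the serum library closest to the starved ones. Gbp2 (1.27), Parp9 (0.52), Ifit3 (1.14) and Lgals3bp (0.48) were the others. H2-K1, H2-D1 and Gbp2 held with any single library left out. The B2m call was lost without control serum replicate 2 or control starvation replicate 2, the Ddx58 call without control serum replicate 2, and the Parp9 call without any of 5 control libraries. Without control serum replicate 1, Ifit3 and Lgals3bp lost their calls and Irf7 and Dtx3l gained one, while in NG2|EDmut cells Ifit2, Ifi27, Lgals3bp and H2-K1 gained one.

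**Figure D5:**
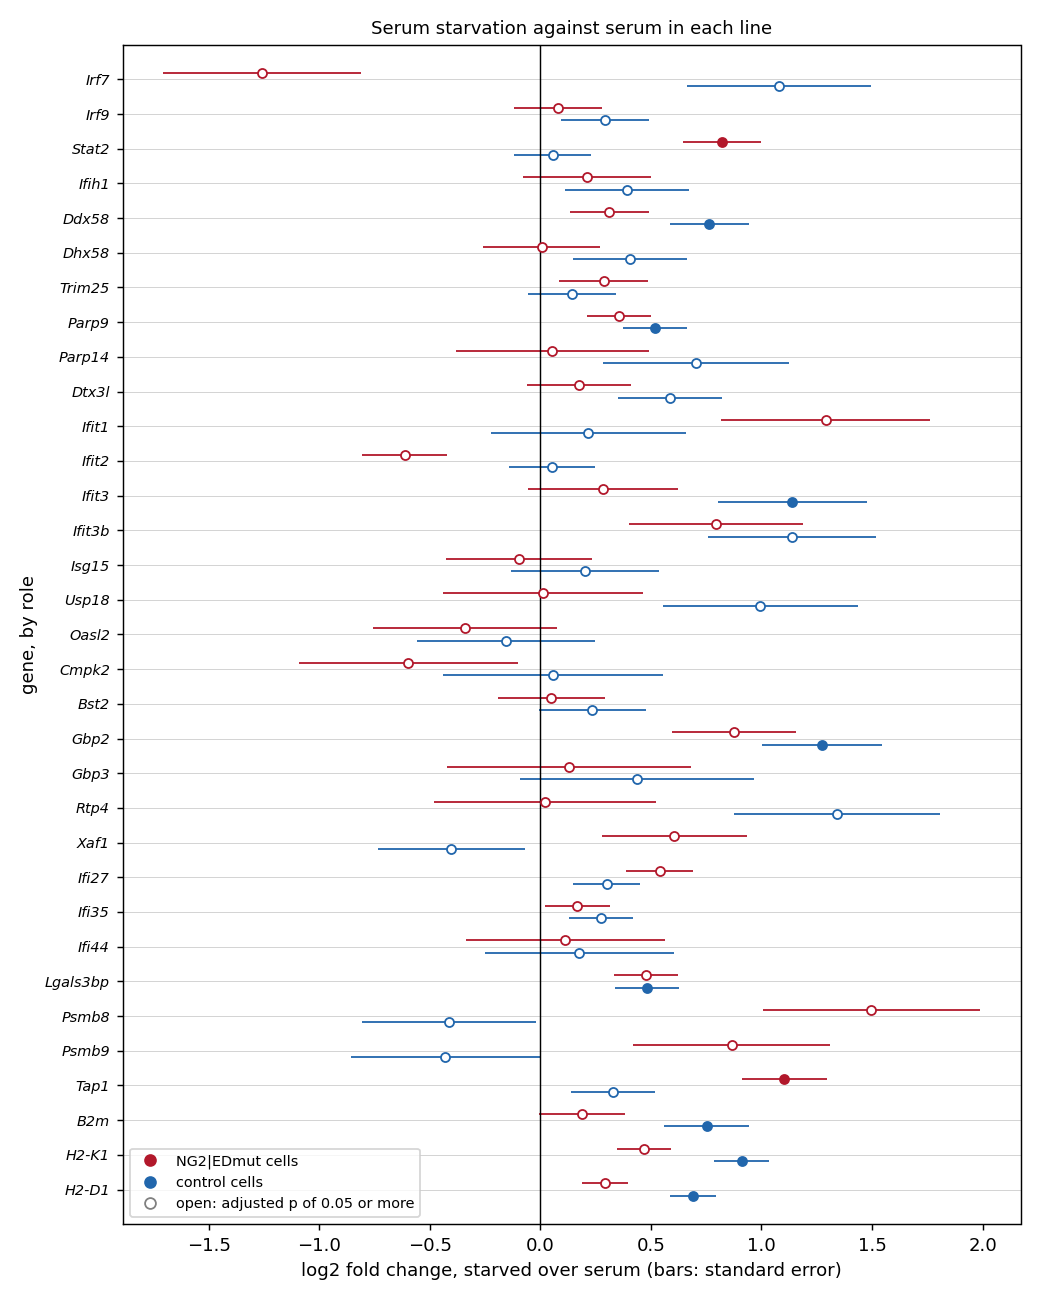
Log2 fold change of starved over serum cells (horizontal axis, bars show the standard error) for 33 members in NG2|EDmut cells and in control cells, with open circles where the adjusted p was 0.05 or more. Oas1a, Oasl1 and Mx2 are not drawn. Filled points lie to the right of 0, and Irf7 has points on opposite sides of 0 in the 2 lines.

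Whether starvation acted differently in the lines was tested as the interaction of line and medium. No member passed (0 of 36 with edgeR, against 4.39% of all tested genes), and DESeq2 called 3 of 33, against 10.7% of all genes it tested. An unadjusted p under 0.05 was reached by 7 members with edgeR, and the share of all genes at that limit was not counted. Without control serum replicate 1, 4 of 37 members were called, against 20.2% of all tested genes, and over the 12 fits with 1 library left out that share was 1.76% to 20.2%. Irf7 came nearest. It stood lower in every starved than in every serum library of NG2|EDmut cells and higher in every starved than in every serum library of control cells, with changes of -1.26 ± 0.45 and 1.08 ± 0.42, neither of them called. The interaction was -2.34 ± 0.61 (adjusted p = 0.0532), with adjusted p = 0.0064 in DESeq2 and 0.0017 without control serum replicate 1. Psmb8 had an interaction of 1.91 (adjusted p = 0.117 with edgeR, 0.0492 with DESeq2, and 0.0426 without control serum replicate 1). Stat2 had 0.76 (adjusted p = 0.113 with edgeR and 0.0475 with DESeq2), and it was called by edgeR without control starvation replicate 1 (1.01, adjusted p = 0.0332). Without control serum replicate 1, Ddx58 (-0.69, adjusted p = 0.0228) and H2-K1 (-0.56, adjusted p = 0.0203) were also called.

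The promoters of the members were searched for the core of the element that the complex of STAT2 and IRF9 binds, written GAAANNGAAA, or TTTCNNTTTC when read on the other strand. RefSeq promoter windows (250 bases before to 50 after the start, build GRCm38.p6) were found for 31 of 41 members, and 14 of these (45.2%) held the core on either strand, against 3.99% of 27025 genes with such a window. Matches may overlap each other. The core was in 4 of 5 IFIT and ISG15 windows and in 1 of 6 MHC class I windows, that of B2m. A match is a description of letters and not of binding. The stretches below are shown because they belong to members with contrasting values, and capitals mark the core. The Ifit3 and Ifit3b stretches are identical over all 84 bases.
Ifit3, chr19:34583353-34583436 (+), first core 156 bases before the start: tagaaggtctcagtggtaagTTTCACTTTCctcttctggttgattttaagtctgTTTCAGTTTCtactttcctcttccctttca
Ifit3b, chr19:34607749-34607832 (+), first core 188 bases before the start: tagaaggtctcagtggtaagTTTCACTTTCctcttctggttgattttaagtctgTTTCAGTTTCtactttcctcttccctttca
Isg15, chr4:156200855-156200916 (-), first of 3 overlapping cores 78 bases before the start: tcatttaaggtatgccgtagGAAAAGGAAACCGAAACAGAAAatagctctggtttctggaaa
Gbp2, chr3:142620584-142620633 (+), core 59 bases before the start: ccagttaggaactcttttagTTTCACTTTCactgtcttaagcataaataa
Stat2, chr10:128270256-128270305 (+), core 222 bases before the start: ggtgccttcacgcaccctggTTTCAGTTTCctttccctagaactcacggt
B2m, chr2:122147528-122147577 (+), core 139 bases before the start: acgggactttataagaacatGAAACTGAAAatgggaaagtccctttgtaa

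Members with and without the core were found among those called lower. Of 12 tested members with a core, 6 were called lower under starvation and 5 in serum. Of 17 tested members with a window and no core, 11 were called lower under starvation and 8 in serum. The shares of all tested genes called lower were 20.1% under starvation and 16.2% in serum. Isg15, with 3 overlapping cores, was not called in either medium, whereas Ifit3, with 2 cores, was called lower under starvation. Irf7, Irf9, Psmb8 and H2-K1 had none in their windows.

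Tap1 and Psmb9 are transcribed away from each other, and the 225 bases between their RefSeq starts are shown because Tap1 was called higher under starvation in NG2|EDmut cells while Psmb9 was not called there (0.86 ± 0.45, adjusted p = 0.467). The difference between the genes was not tested. In the gene annotation their models overlap by 212 bases on opposite strands, so reads of that overlap cannot be assigned to either. The stretch holds no core and so no capitals.
Tap1 and Psmb9, chr17:34187331-34187555 (+): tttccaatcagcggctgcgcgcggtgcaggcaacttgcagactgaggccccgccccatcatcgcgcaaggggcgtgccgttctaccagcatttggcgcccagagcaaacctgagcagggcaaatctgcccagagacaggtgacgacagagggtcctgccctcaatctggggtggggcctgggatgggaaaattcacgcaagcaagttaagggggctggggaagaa

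Genes of the same pathways outside the list give the surroundings of these values. Their lists too were chosen with earlier results of these data known, so their shares are descriptions. Of 17 tested interferon ligand, receptor and JAK-STAT genes, 9 (52.9%) were called lower and 1 (5.88%) higher in NG2|EDmut cells under starvation, against 20.1% and 17.9% of all tested genes. In serum 5 (29.4%) were called lower and 1 higher, against 16.2% and 15.4% of all tested genes. Irf1, an interferon-inducible activator of class I genes, averaged 15.5 ± 1.6 CPM in NG2|EDmut starved cells and 39.0 ± 2.3 CPM in control starved cells (-1.33, adjusted p = 2.15e-06), and its interaction was called (-1.10, adjusted p = 0.0021). Jak2, a kinase of the interferon gamma receptor, went the other way, higher by 0.98 under starvation and by 1.22 in serum on the log2 scale. Ifnar1, a receptor chain, was lower in NG2|EDmut than in control cells by 0.49 in serum.

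Of 13 other class I and peptide loading genes, 7 (53.8%) were called lower and 2 (15.4%) higher under starvation, against the same 20.1% and 17.9% of all tested genes, and 8 (61.5%) lower and 2 (15.4%) higher in serum, against 16.2% and 15.4%. The shares called higher were near those of all genes. H2-T23, a non-classical heavy chain, had 14.7, 11.4 and 12.5 CPM in NG2|EDmut starved cells, against 70.3, 81.7 and 75.7 CPM in control starved cells (-2.56, adjusted p = 2.13e-07). Its starvation change in control cells was 1.74 (adjusted p = 5.64e-05), and its interaction was called (-1.67, adjusted p = 9.57e-04). Tapbp, which bridges TAP1 to class I molecules, had 38.7, 41.2 and 61.5 CPM in NG2|EDmut serum cells, against 96.5, 168 and 178 CPM in control serum cells (-1.64). Erap1, which trims peptides, was lower in NG2|EDmut cells by 1.16 under starvation and by 0.90 in serum on the log2 scale. H2-M3, another non-classical heavy chain, was higher in NG2|EDmut cells by 2.21 in serum.

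Of 17 nucleic acid sensing and adaptor genes, 6 (35.3%) were called lower and 5 (29.4%) higher under starvation, against 20.1% and 17.9% of all tested genes, and 4 (23.5%) lower and 5 (29.4%) higher in serum, against 16.2% and 15.4%. Sting1, the adaptor of cytosolic DNA sensing, had 7.80, 8.60 and 6.91 CPM in NG2|EDmut starved cells, against 20.0, 20.6 and 19.9 CPM in control starved cells (-1.38, adjusted p = 3.18e-05). In serum it had 10.5, 9.46 and 10.6 CPM in NG2|EDmut cells, against 5.96, 4.01 and 5.33 CPM in control cells (0.99, adjusted p = 5.44e-04). The order of the lines turned with the medium, and the interaction was called (-2.37, adjusted p = 2.74e-04). Ifi204, a DNA-binding family member, was higher in NG2|EDmut cells by 2.24 under starvation and by 3.08 in serum. Of 37 tested other interferon-stimulated genes, 13 (35.1%) were called lower and 3 (8.11%) higher under starvation, and 10 (27.0%) lower and 5 (13.5%) higher in serum, beside the same shares of all tested genes. In NG2|EDmut cells Trim30a was lower by 2.94 under starvation and by 2.09 in serum, while Lgals9 was higher by 0.86 and by 0.90. Interferon-related genes outside the list thus included calls in both directions.

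Of the 5 MHC class II genes, 2 were tested. Cd74, the invariant chain, averaged 3.75 ± 0.12 CPM in NG2|EDmut starved cells and 9.39 ± 1.5 CPM in control starved cells (-1.32, adjusted p = 0.0026). H2-Ab1 was listed at 0.175, 0.148 and 0.221 CPM in NG2|EDmut starved cells, against 0 CPM in each control starved library. These values are near the floor, and the gene passed the filter on low counts only through the NG2|EDmut starved libraries. Its higher call there (edgeR adjusted p = 0.0191) is therefore not a fair test, and no difference is claimed.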

How the data were processed

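The authors mapped paired-end reads of stranded poly(A) libraries with HISAT2 and estimated gene levels with StringTie and edgeR. The deposited table holds whole-number estimated counts per gene and the authors' FPKM values. For versions, read length, genome build and strand setting, the sources used here give nothing. StringTie derives such counts from coverage, so 1 estimated count is not 1 read and no counting intervals are given. Gene starts matched GRCm38. The members and lists were chosen with earlier results of these data known. Estimated counts were filtered with filterByExpr, scaled with TMM and fitted by edgeR 4.0.16 (R 4.3.3) quasi-likelihood over 4 group means and 12 libraries. The p-values were adjusted by Benjamini-Hochberg over 18703 genes, with calls at 0.05. Alternatives were DESeq2 1.42.0, RLE factors, no filter, at least 10 counts in every library, only the groups compared, a replicate block, limma 3.58.1 on log2(FPKM + 1) and log2(FPKM + 0.1) with a mean of at least 0.5 FPKM, a log2 fold change of at least 1, each library left out, and, chosen after seeing the data, counts divided by 4. The fits were tested on simulated data. Library values are given for Irf7, Irf9, Stat2, B2m, H2-K1 and H2-D1, for up to 6 called members per comparison with the smallest adjusted p and groups apart, and for called members against the majority direction. Lists outside the members name up to 4 called genes, and 1 of those is not reported here. Promoter sequences are from RefSeq, and shared stretches are from the transcripts of the reference annotation.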

Additional observations from a re-analysis of the deposited data

How the results depend on the processing

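Settings that moved a count of called members by over 1.5 times are listed here. NG2|EDmut against control in serum gave 1 higher call, and 0 with no filter, with only the groups compared or with calls limited to at least 1 on the log2 scale, and 0 to 1 with a library left out. Its 18 lower calls became 8 and 9 in the limma fits with pseudocounts of 1 and 0.1, which tested 19 members, and 11 at that fold limit, with 13 to 18 over the left-out libraries. Under starvation the 23 lower calls became 13 and 12 in the limma fits and 13 at the fold limit, with 16 to 25 over the left-out libraries. Starvation in NG2|EDmut cells gave 2 higher calls, and 4 with DESeq2, 1 with no filter, 7 with only the groups compared and 1 at the fold limit, with 0 to 5 over the left-out libraries. Its lower calls numbered 0, and 1 with only the groups compared, with 0 to 1 over the left-out libraries. Starvation in control cells gave 8 higher calls, and 2 with only the groups compared or at the fold limit, with 3 to 8 over the left-out libraries. The interaction gave 0 calls, and with DESeq2 2 higher and 1 lower, with at least 10 counts in every library 1 lower (Irf7), and over the left-out libraries 0 to 1 higher and 0 to 3 lower. RLE factors changed no count of members.

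Libraries with the same replicate number shared no strong deviation from their group means: 18 same-numbered pairs had correlations of -0.125 to 0.0939. Pairs with different numbers were not compared, so whether the samples were paired was not tested. With the replicate block 15 members were lower in serum, 22 lower and 1 higher under starvation, 2 higher with starvation in NG2|EDmut cells and 7 in control cells. Over all 36 tested members, the 5 comparisons and every alternative that gave a value, 971 of 1126 values of called members stayed called, 155 lost the call and 0 turned direction, and 45 of 2574 values of members not called gained a call. Depth limits the 14 members under 1 CPM, of which 9 were tested.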
